A study of Mus musculus with 24 samples.

Results

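The genes of autophagy, mitophagy and the lysosome were measured in the *M. gastrocnemius* of mice that were kept for 6 h at 20.9% O2 (Norm) or at 12% O2 (Hypox), to find out whether an acute drop in oxygen changed their transcripts. The 37 genes were listed by symbol, with earlier results of these data known. They were found on the array by the gene name of each probe, without use of their values. A gene counted as measured where the Cy5 signal of a probe averaged over 2 times its local background across the 24 arrays, which held for 34 of the 37 genes, among 9139 genes tested in all. The probes of *Atg4a*, *Atg4b* and *Nbr1* stayed under that limit, at 1.15, 1.59 and 1.78 times the background. Both groups consisted of 12 male C57BL/6JOlaHsd mice that had arrived at an age of 10 weeks. All of them had eaten a diet with 10% of its energy as fat for 3 weeks and one with 40% for 6 weeks, and they were fasted during the exposure. Each mouse had 1 array, with its RNA in Cy5 and a pool of all samples in Cy3, and every value below is the log2 ratio of the mouse over that pool. A difference between groups is the mean of Hypox minus the mean of Norm on this scale (log2 fold change). RNA came from whole muscle, so that fewer cells of a type and less RNA per cell cannot be told apart.

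In autophagy, a membrane closes around cell contents and carries them to the lysosome for breakdown. The ULK1 kinase complex starts the process, a lipid kinase complex around VPS34 (*Pik3c3*) and beclin 1 (*Becn1*) marks the membrane, and enzymes that resemble the ubiquitin system attach small ATG8 proteins such as LC3 (*Map1lc3a*, *Map1lc3b*) to it. Receptors bridge cargo to these ATG8 proteins, and in mitophagy the cargo is the mitochondrion, marked by the kinase PINK1 or by the outer membrane receptors BNIP3, NIX (*Bnip3l*) and FUNDC1. In skeletal muscle, autophagy genes are known to respond to fasting, and *Bnip3* is a known target of hypoxia-inducible factor in many cells.

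The arrays lay on 6 slides with 2 Norm and 2 Hypox arrays each. The mean Cy5 signal spanned 58.3 to 933 in Norm and 63.5 to 1014 in Hypox, and all arrays of slide 1 were at or below 102. All 8 skeletal muscle markers, which check the labelled tissue, were measured, from 420 times the background for *Myh1* to 2686 times for *Tnnt3*. The arrays of Hypox replicates 2 and 12, called Hypox 2 and Hypox 12 here, stood apart. Around the mean of their group, the values of all genes had an SD of 0.52 on Hypox 2 and 0.44 on Hypox 12, against 0.17 to 0.35 on the other 22 arrays. Of the 34 measured members, 15 lay above or below all those 22 arrays on Hypox 2 and 10 on Hypox 12. Most results that rest on them are given with and without both arrays.

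Few of these genes differed between Hypox and Norm past the threshold of the study, an unadjusted P-value of 0.05. *Becn1* (log2 fold change 0.27) and *Atg12* (0.16) rose, and the other 32 measured members did not pass. With limma's moderated test, 2 of 34 members (5.88%) were under the threshold against 12.2% of all genes tested. Of all genes, 7.17% passed as higher and 5.07% as lower. After adjustment over all genes by the Benjamini-Hochberg method, 0 members and 0.339% of all genes passed. The median log2 fold change was 0.032 over the 34 members, with 18 positive (52.9%), and 0.029 over all genes, of which 58.8% were positive. For 30 members the 95% interval of the difference lay within 0.5 on either side of 0, a fold of 1.41, and for 17 it lay within 0.3. The exceptions with intervals past 0.5 were *Gabarapl2*, *Map1lc3a*, *Tfeb* and *Lamp2*, with upper bounds of 0.56, 0.58, 0.54 and 0.53.

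**Figure D1:**
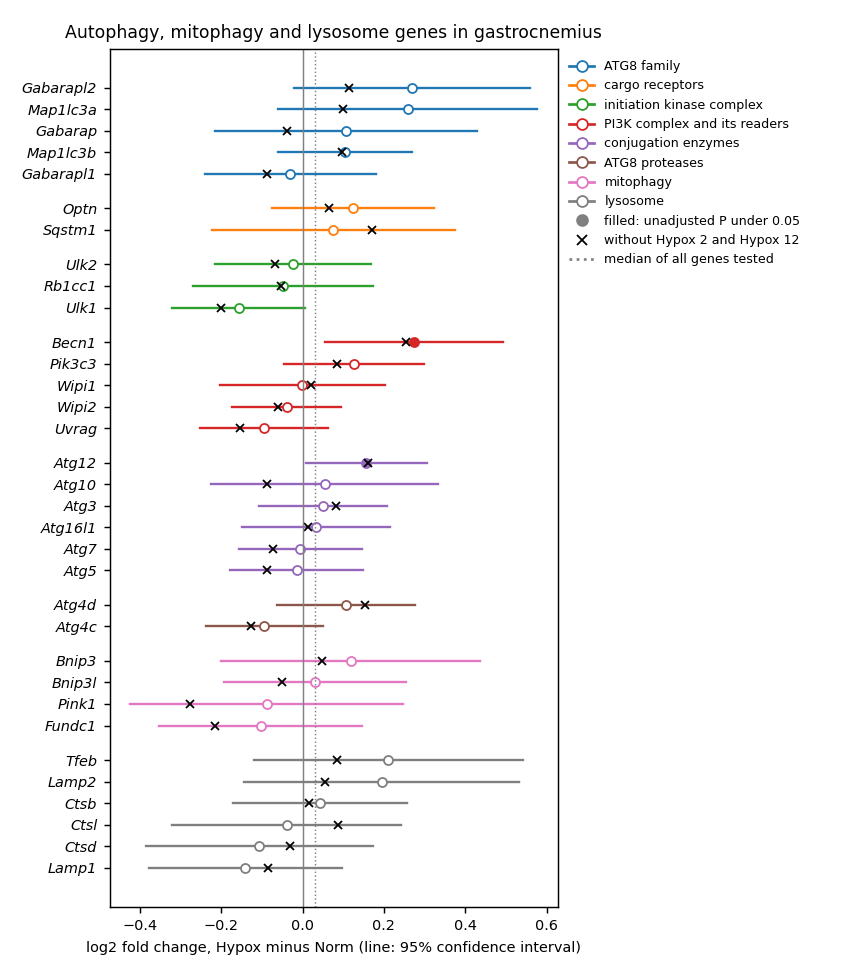
Log2 fold change (Hypox minus Norm, x axis) of 33 of the 34 measured members, grouped by role, with the 95% interval as a line. The 2 filled points, *Becn1* and *Atg12*, had an unadjusted P-value under 0.05, crosses give the value without the arrays Hypox 2 and Hypox 12, and the dotted line is the median of all genes tested at 0.029.

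Of the 5 ATG8 family genes, whose proteins are attached to the growing membrane, none passed the test, and 4 had a positive difference. The probe of *Map1lc3b* (NM_026160, chromosome 8, 124121771 to 124121830, build mm9 as for all probes) was printed in 10 spots. Its log2 ratio spanned -0.46 to 0.17 on the Norm arrays (median -0.071) and -0.26 to 0.27 on the Hypox arrays (median -0.0047), a difference of 0.10 (standard error, SE, 0.080, P = 0.205 with limma). The groups overlapped over most of their range, and *Map1lc3b* was higher in Hypox on 4 of 6 slides. *Gabarapl1* (chromosome 6, 129492254 to 129492313), a relative of GABARAP, spanned -0.26 to 0.62 in Norm (median 0.16) and -0.17 to 0.61 in Hypox (median 0.12). Its difference of -0.030 (95% interval -0.24 to 0.18, P = 0.770) was far smaller than the spread of either group. *Gabarapl2* had the largest difference of the family at 0.27 (SE 0.14, P = 0.0689), with Norm from -0.51 to 0.16 and Hypox from -0.38 to 1.33. *Map1lc3a* was at -0.58 ± 0.33 (SD, 12 Norm arrays) and at -0.32 ± 0.48 (SD, 12 Hypox arrays), a difference of 0.26 (P = 0.108). *Gabarap* was at -0.30 ± 0.23 in Norm and -0.19 ± 0.54 in Hypox, a difference of 0.11 (P = 0.504).

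For 3 of these genes the difference was largest through 1 array. On Hypox 12 the log2 ratio was 1.41 for *Gabarap*, 1.33 for *Gabarapl2* and 1.05 for *Map1lc3a*, while the highest of the other 22 arrays outside Hypox 2 was at 0.049, 0.21 and 0.052. A second *Gabarap* probe, 0.84 on Hypox 12, was also above those 22 arrays, which reached 0.14. On the same array *Map1lc3b* was at -0.00093 and *Gabarapl1* at 0.28, both within the range of the other arrays. Without Hypox 12 the differences were 0.15 for *Gabarapl2*, 0.13 for *Map1lc3a* and -0.039 for *Gabarap*. Without Hypox 2 as well they were 0.11 for *Gabarapl2* (P = 0.257), 0.099 for *Map1lc3a* (P = 0.384) and -0.038 for *Gabarap* (P = 0.695). The mean of the 5 genes was 0.14 higher in Hypox with these 2 arrays and 0.037 higher without them.

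The cargo receptors hold p62 (*Sqstm1*), which binds ubiquitinated cargo and LC3, optineurin (*Optn*) and *Nbr1*, and neither measured gene passed. *Sqstm1* (chromosome 11, 50015985 to 50016044) spanned -0.42 to 0.54 in Norm (median -0.14) and -0.81 to 1.15 in Hypox (median -0.039). Both ends of the Hypox range lay outside the Norm range, with Hypox 5 at the top and Hypox 2 at the bottom. Its difference was 0.076 (SE 0.15, P = 0.607), and a second, dimmer probe gave 0.012. *Optn* had a difference of 0.12 (P = 0.213), with Hypox 2 at 0.74, while the 22 arrays other than Hypox 2 and Hypox 12 reached 0.14.

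The 3 members of the initiation kinase complex, *Ulk1*, *Ulk2* and *Rb1cc1* (FIP200, the scaffold of the complex), had differences of -0.16, -0.023 and -0.048. *Ulk1*, the kinase that starts autophagosome formation, was read by 1 probe (NM_009469, chromosome 5, 111213514 to 111213573). It spanned -0.31 to 0.45 on the Norm arrays (median 0.085) and -0.33 to 0.18 on the Hypox arrays (median -0.11). No Hypox array lay above all Norm arrays, and 2 of 6 slides had the higher mean in Hypox. The difference (SE 0.079, P = 0.0577, adjusted P = 0.426 with limma) fell just short of the threshold. It passed with the methods' t-test (P = 0.0491), with the scanner software's processed signals (-0.19, P = 0.0127) and without Hypox 2 and Hypox 12 (-0.20, P = 0.0178). On the deposited values it was at 0.082 (P = 0.771), close to the median of all genes there, 0.085. *Rb1cc1* and *Ulk2* each had a second probe, at -0.046 and -0.055.

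Beclin 1 (*Becn1*), the regulatory subunit of the lipid kinase complex, was the member with the largest difference and the smallest P-value. Its only probe carries the sequence of NM_019584 from base 1095 on. The probe is shown because the result rests on it alone. Its target runs from 101151771 to 101152713 on the minus strand of chromosome 11, longer than the 60 bases of the probe, so that it lies across a splice junction and reads spliced mRNA.
*Becn1* probe: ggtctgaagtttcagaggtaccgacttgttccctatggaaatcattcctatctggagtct
On the Norm arrays *Becn1* ranged from -0.48 to 0.073 (median -0.29), and on the Hypox arrays from -0.45 to 0.75 (median -0.099). Of the 12 Hypox arrays 4 lay above every Norm array, led by Hypox 6 and Hypox 2, and the lowest Hypox array was within the Norm range. The difference was 0.27 (SE 0.11, 95% interval 0.054 to 0.49, P = 0.0165, adjusted P = 0.277 with limma), a fold of 1.21. Within slides it was positive on 5 of 6, from -0.0089 to 0.61, and the test passed in 24 of 24 fits that left out 1 array, with values from 0.21 to 0.32. Each of these fits kept Hypox 6 (0.75) or Hypox 2 (0.50), and the next highest, Hypox 3, was at 0.31. How far the difference rests on Hypox 6 and Hypox 2 together was not tested. The signal was dim, at 2.86 times the background, and the scanner software called it well above background on 8 Norm and 10 Hypox arrays. On the authors' deposited values *Becn1* was higher by 0.18 without passing (P = 0.170), likewise with the processed signals (0.33, P = 0.231).

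The other genes of the lipid kinase complex and of its readers did not pass. *Pik3c3*, the kinase itself, was at 0.13 (P = 0.147) with a signal of 2.01 times the background, the lowest of the measured members. *Uvrag*, a partner of beclin 1 in endosome and autophagosome maturation, was at -0.096 (P = 0.223) and at -0.15 without Hypox 2 and Hypox 12 (P = 0.0359). *Wipi1* and *Wipi2*, which bind the lipid that the kinase makes, were at -0.00083 (95% interval -0.20 to 0.20) and -0.040 (95% interval -0.17 to 0.095).

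Among the 6 conjugation genes, which attach ATG12 to ATG5 and the ATG8 proteins to lipid, *Atg12* rose and the others did not pass. *Atg12* (NM_026217, chromosome 18, 46892253 to 46892312) spanned -0.41 to 0.14 in Norm (median -0.11) and -0.15 to 0.46 in Hypox (median -0.0049). Of the Hypox arrays 2 lay above all Norm arrays, and 4 Norm arrays lay below all Hypox arrays. The difference was 0.16 (SE 0.073, 95% interval 0.0074 to 0.31, P = 0.0403, adjusted P = 0.379 with limma), and it was positive on 5 of 6 slides. A second *Atg12* probe, which lies closer to the start of the transcript, gave 0.014, and the mean of both probes did not pass (0.085, P = 0.208). The test passed in 17 of 24 fits that left out 1 array, and not without Norm replicates 2, 6, 7, 8 or 9 or Hypox replicates 8 or 9, with P-values up to 0.0868. *Atg3*, *Atg5*, *Atg7*, *Atg10* and *Atg16l1* had differences from -0.015 to 0.054. *Atg10* was at 1.35 on Hypox 12, and without Hypox 2 and Hypox 12 its difference was -0.088 in place of 0.054. The *Atg10* probe was dim, at 2.51 times the background.

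The ATG4 proteases trim the ATG8 proteins before they are attached. *Atg4d* was at 0.11 (P = 0.206) and *Atg4c* at -0.094 (P = 0.192). Without the filter on dim probes, *Atg4b*, which was well above background on 2 Norm and 3 Hypox arrays, was at 0.19 (P = 0.0231, adjusted P = 0.471 with limma) and *Atg4a* at 0.0017 (P = 0.972). In that fit 4 of 37 members passed, against 8.68% of all genes.

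**Figure D2:**
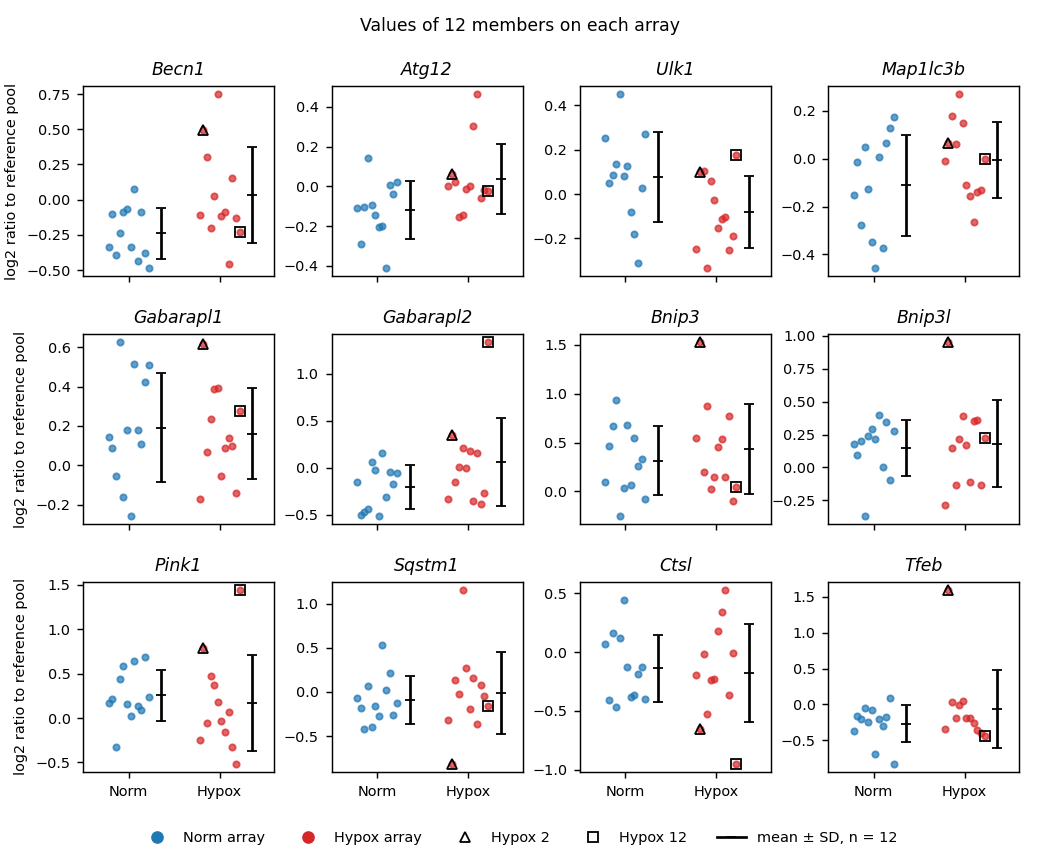
Log2 ratio to the reference pool (y axis, a scale of its own in each panel) of 12 members on the 12 Norm and 12 Hypox arrays, with the mean ± SD beside each group. The triangle (Hypox 2) is the highest array for *Bnip3*, *Bnip3l* and *Tfeb*, and the square (Hypox 12) for *Gabarapl2* and *Pink1*.

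None of the 5 mitophagy genes passed. *Bnip3*, a receptor in the outer mitochondrial membrane, was bright, at 193 times the background for its brightest probe (NM_009760, chromosome 7, 146082760 to 146082819). That probe spanned -0.25 to 0.94 in Norm (median 0.30) and -0.10 to 1.52 in Hypox (median 0.33). The medians of both groups lay close together, and Hypox 2 was the only Hypox array above all Norm arrays. The difference was 0.12 (SE 0.16, 95% interval -0.20 to 0.44, P = 0.456, adjusted P = 0.783 with limma), and 0.047 without Hypox 2 and Hypox 12. *Bnip3l* (chromosome 14, 67606210 to 67606269), whose protein NIX clears mitochondria in maturing red cells, spanned -0.37 to 0.40 in Norm (median 0.21) and -0.28 to 0.95 in Hypox (median 0.19). Its difference of 0.030 (SE 0.11, P = 0.785) turned to -0.052 without Hypox 2 and Hypox 12, and it was higher in Hypox on 3 of 6 slides.

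*Pink1*, the kinase that accumulates on damaged mitochondria (chromosome 4, 137869327 to 137869386), spanned -0.32 to 0.69 in Norm (median 0.19) and -0.51 to 1.44 in Hypox (median 0.017). Hypox 12 and Hypox 2 were the 2 Hypox arrays above all Norm arrays, while Hypox 11 and, narrowly, Hypox 10 were below all of them. The difference was -0.089 (SE 0.16, P = 0.593) with all arrays and -0.28 (P = 0.0273) without Hypox 12 and Hypox 2. *Fundc1*, a receptor known for mitophagy under hypoxia, was at -0.10 (P = 0.405) and, without both arrays, at -0.22 (P = 0.0425). That fit left out its value of 0.75 on Hypox 12 and kept a value of 0.79 on Norm 3. *Fundc1* was higher in Hypox on 3 of 6 slides. On the deposited values, with a median of all genes of 0.085, *Pink1* was at 0.28 (P = 0.403) and *Fundc1* at 0.014 (P = 0.943).

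With Hypox 2 and Hypox 12 left out, a choice made after their values were seen, 8 of 34 members were under the unadjusted threshold against 14.4% of all genes. *Becn1*, *Atg12* and *Atg4d* were then higher, and 5 members lower, among them *Ulk1*, *Uvrag*, *Pink1* and *Fundc1*. The median of the members was -0.0094 and that of all genes 0.023. The SD of 24 of 34 members (70.6%) was larger in Hypox than in Norm, against 58.4% of all genes. Without these 2 arrays it was larger for 10 of 34 (29.4%), against 35.8% of all genes. The 2 arrays were picked as the farthest out for the members, and no Norm array was left out, so that a smaller SD in Hypox follows from that choice. Hypox 2 had 12 members above all 22 other arrays and 3 below, and Hypox 12 had 8 above and 2 below. Leaving both out therefore also moves more members down than up.

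**Figure D3:**
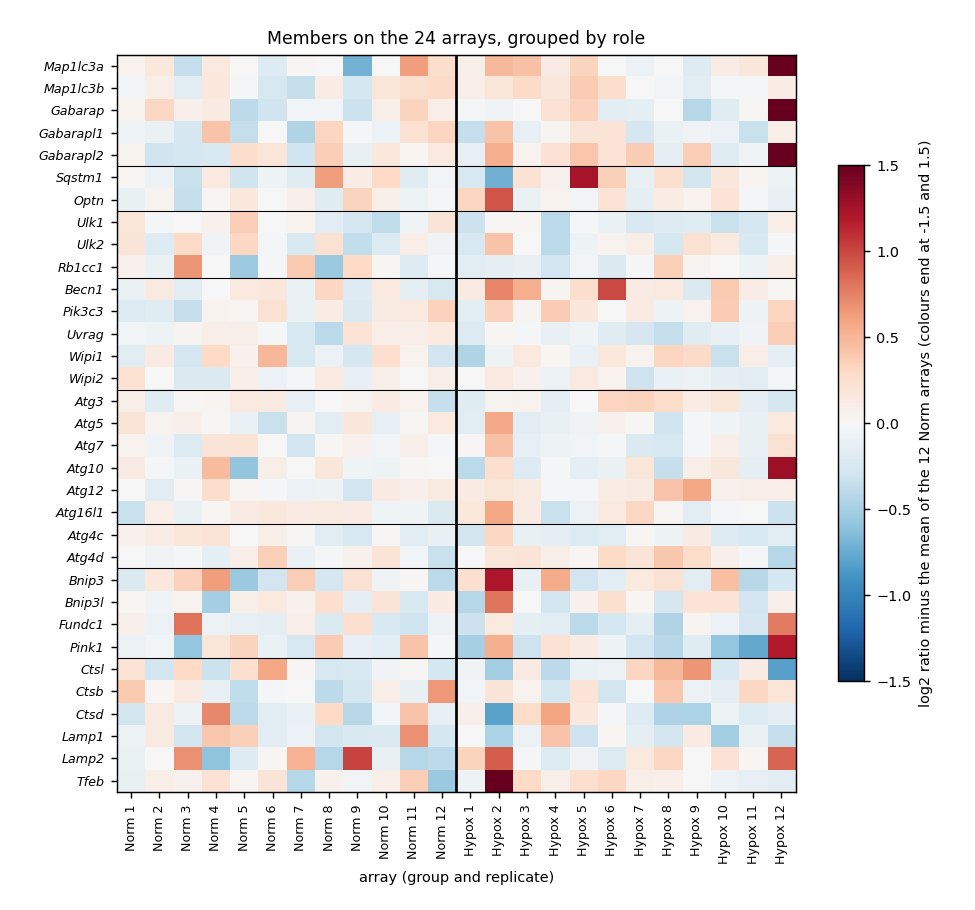
Log2 ratio of 33 of the 34 measured members minus the mean of the 12 Norm arrays (colour, red higher, blue lower, ending at 1.5 on either side) for the 24 arrays in columns, with lines between roles. Hypox 2 and Hypox 12 hold most of the strong colours, and no role has one colour across the Hypox arrays.

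The lysosome genes included 3 cathepsins, which are proteases of its lumen, 2 membrane proteins and *Tfeb*, a transcription factor of lysosome genes, and none of the 6 passed. *Ctsl* (chromosome 13, 64465287 to 64465346), a cathepsin known to rise in muscle atrophy, spanned -0.46 to 0.45 in Norm (median -0.16) and -0.95 to 0.53 in Hypox (median -0.21). Hypox 12 and Hypox 2 were its lowest arrays. The difference was -0.040 (SE 0.14, P = 0.776), and 0.086 without these 2 arrays. *Ctsb* was at 0.043 (95% interval -0.17 to 0.26), *Ctsd* at -0.11 (95% interval -0.39 to 0.17) and *Lamp1* at -0.14 (95% interval -0.38 to 0.096). *Lamp1* was higher in Hypox on 1 of 6 slides, with P = 0.233. *Lamp2* was at 0.19 (P = 0.250) by the probe for NM_010685, whereas the probe for another transcript, NM_001017959, gave -0.10 (P = 0.278). By the first probe Hypox 2 (0.92) and Hypox 12 (0.89) were the highest Hypox arrays. The next, Hypox 1, was at 0.35, and Norm 9 was at 1.03. *Tfeb* (chromosome 17, 47929089 to 47929148) spanned -0.83 to 0.093 in Norm (median -0.20) and -0.44 to 1.59 in Hypox (median -0.19). All Hypox arrays but Hypox 2 lay within the Norm range, so that the difference of 0.21 (SE 0.16, P = 0.203) became 0.084 (P = 0.379) without Hypox 2 and Hypox 12.

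Of the 34 measured members, 13 were read by over 1 measured probe, which allowed 17 comparisons of the brightest probe with another one of the same gene. In none of them did the difference between probes pass the test for a change between Norm and Hypox (2-sided permutation test of each, lowest P = 0.0990, lowest adjusted P = 0.703 over 17 pairs). The widest gaps were 0.30 for *Lamp2* and 0.28 for *Bnip3*. Of the 51 measured member probes, 3 had an unadjusted P-value under 0.05 in the fit over all probes, against 14.1% of 14312 probes. They were those of *Becn1* and *Atg12* and another, dim *Bnip3* probe at 3.41 times the background, which gave 0.16 (P = 0.0408). *Ulk1* was at P = 0.0583 in that fit.

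On Hypox 2, probes of a single gene went opposite ways. The brightest *Bnip3* probe was at 1.52, above the other 22 arrays, which reached 0.94, and the second brightest, for a stretch 120 bases further along the transcript, was at -1.17, below all of them, whose lowest was -0.40. For *Bnip3l* the brightest probe was at 0.95 and the second at -0.83, again beyond the other arrays on either side (highest 0.40 and lowest -0.61). On Hypox 12 the same second probes were also below those 22 arrays, at -0.60 for *Bnip3* and -0.79 for *Bnip3l*. The brightest probes, at 0.050 and 0.23 there, were within the range of the 22. The values of these genes on Hypox 2 and Hypox 12 therefore depended on the probe. These 2 probes of *Bnip3* gave group differences of 0.12 and -0.16, neither past the threshold. The 4 probes of *Bnip3l* gave differences from -0.072 to 0.23.

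**Figure D4:**
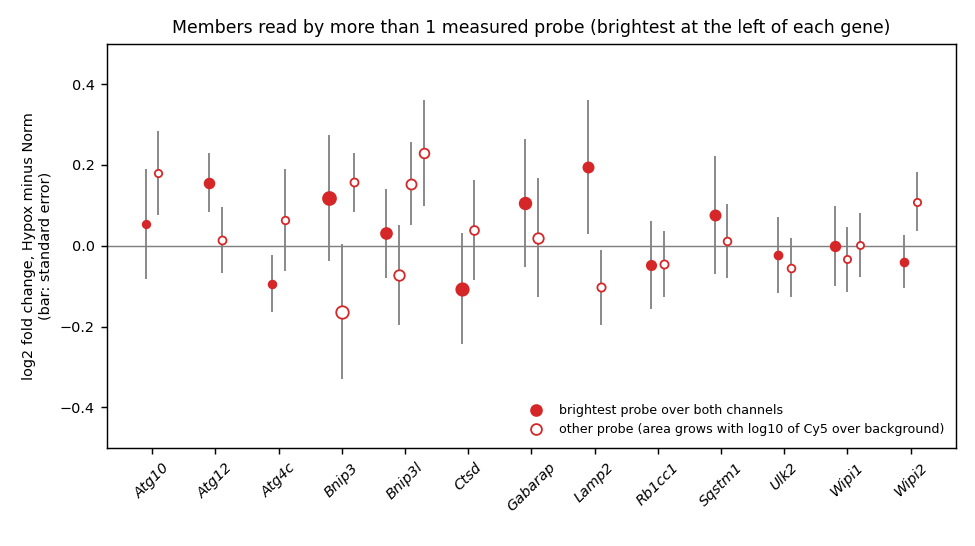
Log2 fold change (Hypox minus Norm, y axis, bar as standard error) of each measured probe of the 13 members with over 1 probe. Filled points are the probes that stood for their gene. The probes of *Atg4c*, *Bnip3*, *Bnip3l*, *Ctsd*, *Lamp2*, *Wipi2* and, narrowly, *Wipi1* lie on both sides of 0.

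Whether members varied together between mice was tested for 8 pairs over the 24 arrays, with the group means removed. The pairs were chosen with earlier results of these data known. *Map1lc3b* and *Gabarapl1* had a Pearson r of 0.61 (permutation P = 0.00272, adjusted P = 0.0218 over 8 pairs) and a Spearman rho of 0.50 (permutation P = 0.0177, adjusted P = 0.141). Without the 2 arrays farthest from the median of *Map1lc3b* r was 0.49, without Hypox 2 and Hypox 12 it was 0.63, and with slide means removed it was 0.51 (adjusted P = 0.206). The relation thus kept its sign and did not pass in ranks or within slides after adjustment. The other 7 pairs did not pass. *Map1lc3b* and *Sqstm1* had an r of 0.39 (rho 0.41, adjusted permutation P = 0.178 and 0.197), and *Bnip3* and *Bnip3l* an r of 0.067 (rho -0.22, adjusted permutation P = 0.846 and 0.422). *Ctsb* and *Ctsd* had an r of -0.30 (rho -0.27, adjusted permutation P = 0.322 and 0.338). *Depp1*, whose protein is known to alter autophagy downstream of FOXO factors, had an r between -0.38 and 0.26 with *Bnip3*, *Gabarapl1*, *Map1lc3b* and *Ctsl*, with adjusted permutation P-values from 0.178 to 0.846.

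Other genes of the same pathways, 100 in 4 lists, were measured for 83, and 12 of them (14.5%) passed without adjustment, 9 higher and 3 lower, a share near the 12.2% of all genes. *Depp1* and *Rragd* also passed after adjustment over all genes. Of the 25 measured genes of other autophagy machinery, 3 rose and 1 fell (median log2 fold change 0.050). *Depp1* differed by 0.95 (adjusted P = 3.46e-05 with limma), and 11 of 12 Hypox arrays were above all Norm arrays. *Vamp8*, a SNARE that fuses autophagosomes with lysosomes, rose by 0.30 (P = 0.00254, adjusted P = 0.150), with 6 of 6 slides positive. *Wdr45*, a relative of the WIPI proteins, rose by 0.22 (P = 0.0210), and *Atg2b*, a lipid transfer protein of the growing membrane, fell by 0.16 (P = 0.0386). The study named *Depp1* from these samples, so its count is not independent evidence of a direction.

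Of the 29 measured lysosomal proteins outside the members, 4 rose and 1 fell (17.2%, against 12.2% of all genes), and 23 had a positive difference (79.3%, against 58.8% of all genes, median 0.092). *Npc2*, which hands cholesterol to NPC1 in the lysosome, spanned -1.13 to 0.075 in Norm and -0.51 to 0.10 in Hypox and rose by 0.29 (SE 0.096, P = 0.00591, adjusted P = 0.204). *Scarb2* (LIMP-2), the carrier of glucocerebrosidase, rose by 0.23 (P = 0.00976), the beta-hexosaminidase subunit *Hexa* by 0.20 (P = 0.0144) and the beta-glucuronidase *Gusb* by 0.16 (P = 0.00963). These 3 were higher in Hypox on 6 of 6 slides, and 6, 7 and 6 of their 12 Hypox arrays lay above all Norm arrays. *Idua*, a glycosaminoglycan hydrolase, fell by 0.21 (P = 0.0397). *Atg2b* and *Idua* are named here after their values were seen. Macrophages are rich in lysosomes, and of 12 macrophage markers 6 were measured with none past the threshold. Their mean log2 ratio spanned -0.38 to 0.43 in Norm and -0.23 to 0.28 in Hypox, and *Adgre1*, *Lyz2*, *C1qa*, *C1qb*, *Cd163* and *Laptm5* were not measured. Of the 4 endothelial markers measured 2 passed as higher, *Cdh5* (0.38) and *Esam* (0.28). The other 2, *Kdr* (-0.15) and *Tie1*, had negative differences and did not pass. All 4 adipocyte markers measured had negative differences, and 2 passed as lower. The 1 lung marker measured, *Sftpc*, passed as higher (0.81, P = 0.0153). The mean of the endothelial markers spanned -0.28 to 0.12 in Norm and -0.23 to 0.086 in Hypox, that of the adipocyte markers from -0.78 to 1.22 and from -0.75 to -0.13. Their part in the results was not tested.

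The 16 measured subunits of the V-ATPase, the proton pump that acidifies the lysosome, had a median of 0.00095, with 2 higher. *Atp6v1e1* rose by 0.40 (P = 0.0299) and *Atp6v1c1* by 0.39 (P = 0.00814), the latter also listed by the study from these samples. *Atp6v1e1* had 2 very high Hypox arrays, at 1.52 on Hypox 6 and 1.45 on Hypox 2, and 0.14 on the next highest. Without Hypox 2 alone *Atp6v1e1* was at 0.29 (P = 0.0610) and without Hypox 6 alone at 0.28 (P = 0.0620), neither past the threshold. *Atp6v1c1* had 1, at 1.84 on Hypox 2. Without Hypox 2 and Hypox 12, with Hypox 6 kept, *Atp6v1e1* stood at 0.34 (P = 0.0239) and *Atp6v1c1* at 0.29 (P = 0.00098). The 13 lysosome regulators had a median of 0.063, with 1 lower. *Rragd*, a GTPase that brings mTORC1 to the lysosome and is a known target of TFEB, spanned -0.069 to 0.49 in Norm (median 0.30) and -0.63 to 0.32 in Hypox (median -0.25). It fell by 0.45 (SE 0.097, P = 8.3e-05, adjusted P = 0.0434 with limma) and was lower on 6 of 6 slides, from -0.77 to -0.049.

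**Figure D5:**
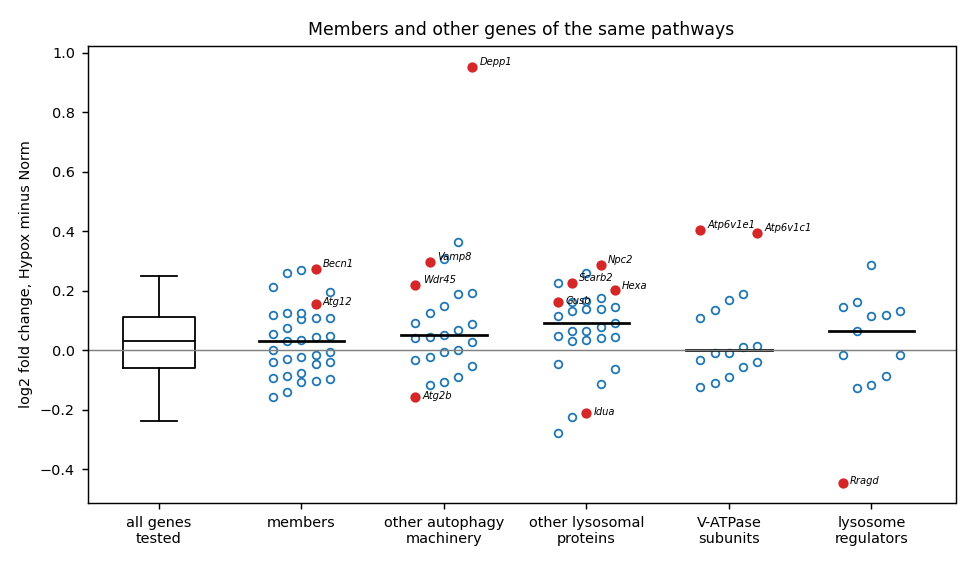
Log2 fold change (Hypox minus Norm, y axis) of the 34 members and of the 4 lists of other pathway genes, with red points for an unadjusted P-value under 0.05 and black lines for medians. The box for all 9139 genes spans the quartiles, with whiskers from the 5th to the 95th percentile, and *Depp1* and *Rragd* lie farthest from 0.

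The promoters of the members were searched for CACGTG, the E-box at the core of TFEB sites, for ACGTG, the core of sites of hypoxia-inducible factor, and for a FOXO motif, as a description of the genes and not of binding. The RefSeq table (build GRCm38.p6) held promoters, from 250 bases before to 50 after the start, for 28 of the 37 members. The palindrome CACGTG stood in those of 7 members (25.0%), against 8.09% of 27025 genes in the table, and the shorter ACGTG, which every CACGTG holds, on either strand in 13 (46.4%) against 21.8%. The FOXO motif GTAAACA was found on either strand in 0 of 28, against 4.05% of genes. The stretches before the start of 4 members are shown for the number and place of their E-boxes (capitals), written in the direction of the gene.
*Bnip3*, chr7:138909582-138909641, minus strand: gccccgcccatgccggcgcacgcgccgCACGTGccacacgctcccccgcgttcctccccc
*Ctsd*, chr7:142387893-142388077, minus strand: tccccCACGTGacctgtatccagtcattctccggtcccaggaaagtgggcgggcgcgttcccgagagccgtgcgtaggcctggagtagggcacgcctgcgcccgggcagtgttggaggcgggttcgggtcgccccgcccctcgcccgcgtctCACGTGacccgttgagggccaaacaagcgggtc
*Lamp1*, chr8:13159073-13159160, plus strand: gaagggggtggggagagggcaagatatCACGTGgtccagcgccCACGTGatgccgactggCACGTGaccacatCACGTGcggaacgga
*Atg3*, chr16:45158708-45158790, plus strand: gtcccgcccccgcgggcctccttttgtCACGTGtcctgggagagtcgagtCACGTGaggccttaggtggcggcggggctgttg
*Lamp1* held 4 copies within the 61 bases before its start, *Ctsd* and *Atg3* 2 copies each, and *Bnip3*, *Atg5*, *Atg7* and *Ctsl* 1 copy. None of these 7 genes passed the test, and their log2 fold changes ran from -0.14 for *Lamp1* to 0.12 for *Bnip3*.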

How the data were processed

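RNA of 24 mice was measured on 2-colour Agilent arrays. The scanner files that the authors deposited hold an intensity per spot and channel, written by Agilent Feature Extraction 10.7.3.1 and not normalized across arrays. A series table holds log2 values that the authors normalized with GeneMaths XT, and its use of Cy3 is not given in the sources used here. Groups came from the sample labels and slides from the scanner output. For the dyes, the descriptions were followed, as some Hypox labels name other dyes. Here the background was corrected with normexp (offset 50), ratios were normalized by loess within arrays, control spots and 7260 flagged readings were left out, and spots of a probe were averaged. Probes were kept with a Cy5 signal over 2 times the background and at most 4 arrays without a value, and a gene was taken from its brightest probe (mean of both channels). In Cy5, 9.42% to 37.8% of spots were well above background on an array, so that dim genes are the least precise. Precision is also bounded by how many arrays there are.

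Hypox was compared with Norm with limma's moderated test, without a block, and Benjamini-Hochberg adjustment over 9139 genes. Correlations used 100000 permutations within groups (within slides where slide means were removed) and probe pairs 100000 over all arrays. The members, lists and pairs were chosen with earlier results of these data known. The genes named in full are members under the unadjusted threshold and *Bnip3*, *Bnip3l*, *Pink1*, *Map1lc3b*, *Gabarapl1*, *Sqstm1*, *Ulk1*, *Ctsl* and *Tfeb*, and of the other pathway genes the 10 with the smallest P-values, which include *Depp1*. Others named were chosen after their values were seen. The values of 1 measured member are not reported here, though counts and medians include it. Probe positions are those of the array files (mm9). The alternatives were other signals, normalizations, filters, sources, blocks and tests, array weights, and leaving out arrays. The test was tried on simulated data with independent normal noise and the same SD of a gene in both groups. Those data held no outlying arrays and no differences between slides, so they cannot show how the test acts with either. The tools were limma 3.58.1 in R 4.3.3, and numpy 2.4.6 in Python 3.11.15.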

Additional observations from a re-analysis of the deposited data

How the results depend on the processing

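The count of 2 members under the unadjusted threshold (12.2% of all genes) is given here for other settings, each with its share of all genes. It was 0 with median centring in place of loess (0.350% of all genes) and with Cy5 alone (7.97%). With the deposited table it was also 0 (5.35% by limma, 5.65% by the methods' t-test). It was 1 with a filter at 3 times the background (12.6%) or the mean of a gene's probes (13.2%). With no filter on signal it was 4 of 37 (8.68%), and with array weights 5 (18.8%). Without Hypox 2 and Hypox 12, chosen after seeing the data, it was 8 (14.4%). Leaving out 1 array at a time gave 1 to 4, with 4 without Hypox replicate 2 or 12 and 1 without Norm replicates 2, 6 or 7 or Hypox replicate 9. The 12 of 83 other pathway genes became 1 with median centring, 7 with Cy5 alone and 21 with array weights. Of all genes, 0.350%, 7.97% and 18.8% passed in these 3 settings. Median centring moved the median of all genes to 0.25. Under it *Pink1* was at 0.45, *Gabarapl1* at 0.41, *Ulk1* at 0.26 and *Ctsl* at 0.35 in place of negative values, so that *Ulk1* lay at that median. On the deposited values, by either test, these 4 were at 0.28, 0.21, 0.082 and 0.20, and the median of all genes was 0.085. *Bnip3l* turned to -0.0058 with the processed signals, -0.016 with Cy5 alone, -0.058 with array weights, -0.019 without the dimmest slide and -0.052 without Hypox 2 and Hypox 12. *Ctsl* turned to 0.060 with array weights, 0.041 without the dimmest slide and 0.086 without both arrays, and *Gabarapl1* to 0.017 without that slide. With 1 array left out, *Bnip3l* ran from -0.040 to 0.072, *Gabarapl1* from -0.071 to 0.0091, *Sqstm1* from -0.030 to 0.15 and *Ctsl* from -0.10 to 0.031. The relation of *Map1lc3b* and *Gabarapl1* no longer passed with slide means removed (r = 0.51). The cause of these shifts was not tested. *Atg12* was positive in all settings run, and *Becn1* in all but the filter at 3 times the background, which left it out. Whether the replicate number of the labels pairs the arrays was not tested. Deviations of same-numbered arrays had correlations from -0.20 to 0.52, the highest for replicate 4, whose arrays both lay on slide 1. With the replicate number as a block 3 members passed, *Becn1*, *Map1lc3a* and *Ulk1*, against 13.1% of all genes. Dim genes such as *Becn1* and *Pik3c3* are the ones that signal over background limits most.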
